A study of Mus musculus with 18 samples.

Results

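Autosomal genes were asked whether their parental alleles answered a stimulus equally, in B cells of mice born from a cross of 2 strains, 129S1 and Cast. The members were the autosomal genes with a name used once in each of the 2 strain-specific count tables of a sample, on the same chromosome in both, and with at least 30 reads over both tables in every sample. This left 7264 genes of the 27326 matched autosomal genes, 15755 of which had any read. The 129 annotation held 40327 genes in all and the Cast annotation 39147. For each member the change of the ratio of Cast to 129 reads was measured, and a positive log2 change means a shift toward the Cast allele.

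Both groups were CD23+ B cells from the spleen of female F1 129S1/Cast mice of genotype Xist+/-, in which the labels state that the Cast X chromosome is always the inactive one. The naive group (3 samples) received no treatment, and the CpG group (3 samples) was kept in vitro with 1 µM CpG for 24 h. The age of the mice and the culture of the naive cells are not given in the sources used here, so stimulation and time in culture cannot be told apart. Nothing in the labels says how many animals gave a sample. The ratio test pairs naive and CpG samples of the same replicate number, so its p-values measure how the change varied between these pairs. That fit leaves 2 residual degrees of freedom per gene, and edgeR shares information on the spread across genes. The p-values of tests without replicate terms measure the spread between samples. The 12 other samples of the series, of a B6/Cast cross, were not analysed here.

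In an F1 animal the 2 alleles of a gene lie in the same nucleus and meet the same transcription factors, so a difference between their outputs is usually ascribed to the sequence of each copy or to marks it carries. When a stimulus changes one allele more than the other, the ratio of the alleles moves, which is called a stimulus-dependent allelic effect. CpG DNA is sensed in the endosome by the receptor TLR9, which signals through MyD88 to NF-kB and MAP kinases and drives B cells out of rest toward growth and division.

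Gene counts per sample ran from 1987266 to 2928236 in the 129 tables and from 2465073 to 3321753 in the Cast tables. All 7 B cell markers checked were members. Their summed level, in CPM (counts scaled to the depth of each sample), ran from 16333 to 17908 in naive and from 3490 to 4643 in CpG samples. Of 29 matched macrophage markers, 27 were lower in every CpG sample than in any naive sample, with sums of 5879 to 11586 CPM in naive and 180 to 236 in CpG samples, and Fcna, Itgam and Fcgr1 were at 0 in all CpG samples. T cell markers summed to 115 to 261 and 44.2 to 54.9 CPM, with Cd3g, Trbc1, Cd2 and Cd6 at 0 in all CpG samples. Plasma cell markers summed to 1096 to 1479 and 1604 to 1744 CPM. Granulocyte, NK and erythroid markers summed to 168 to 288 and 27.0 to 37.2 CPM, with 9 of 25 at 0 in all CpG samples. In such bulk samples fewer cells of a type and less RNA per cell cannot be told apart, and the part of these other cells in the ratio changes below was not tested.

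Samples with the same replicate number shared their allele ratios. The deviations of the log2 ratio from the group mean were compared across 5027 genes with at least 100 reads. Same-numbered naive and CpG samples correlated at 0.835, 0.770 and 0.844. Differently numbered pairs correlated negatively, but deviations from a group mean cancel out, so this follows largely from the same-numbered correlations. The ratio differed between the replicate numbers for 1223 of 7264 members, which is 16.8% (edgeR, adjusted p under 0.05). Among 6914 pairs of neighbouring members in the order of GRCm38.p6, both differed in 555 (8.03%, beside 2.82% given by the square of the share). In 507 of the 555 the same replicate number stood apart in the same direction. Chromosome 8 had 4 such genes (0.988% of its members) and chromosome 14 had 80 (31.2%).

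In part of these genes one replicate number showed nearly one allele alone, against the label of an F1 cross. The Cast share was over 95% in both samples of replicate 3 and between 10% and 90% in all others for 26 members on 7 chromosomes. Replicate 1 had 12 such members and replicate 2 had 9. Counting members with a share over 95% or under 5% in both samples of some replicate numbers but not all 3, there were 125. Of these 125, 11 had a ratio change past the threshold, beside 657 (9.28%) of the 7083 members with no such share in any replicate number. The opposite, a share under 5% in both samples of 1 number alone, was seen for 1 member. Poglut1 on chromosome 16, picked for its values, had naive Cast shares of 48.3%, 44.5% and 99.1% and CpG shares of 33.6%, 36.8% and 98.8%. The third replicate thus carried almost no 129 reads of Poglut1, and its ratio change of -0.66 (adjusted p = 0.00162) rests on the other pairs. Poglut1 missed the threshold without the replicate terms, without replicate 1 (adjusted p = 0.225) and in DESeq2 (0.253). The ratio test has a term for the replicate number, set by the rule that chose the members. Restricted to the 6041 members with no difference between replicate numbers, an alternative added after these values were seen, the test called 595 genes.

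The ratio of the alleles changed with CpG for 674 of the 7264 members, which is 9.28% (edgeR quasi-likelihood test with sample and replicate terms, adjusted p under 0.05). Of these, 341 moved toward Cast (4.69%) and 333 toward 129 (4.58%). The median absolute log2 change was 0.73 among the called genes and 0.21 over all members. A log2 change of at least 1 was reached by 201 of the called genes, and the mean Cast share moved by at least 10 percentage points in 374 and by at least 25 in 45. The naive and CpG shares did not overlap for 548 of the 674, against 20.4% of all members, and all 3 pairs moved the same way for 659, against 40.1%. These last counts come from the same reads as the test and describe its calls.

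How many genes were called depended on the model. Without the replicate terms 85 genes passed (1.17%), DESeq2 with the replicate terms called 180 (2.48%) and limma on the log2 ratio of each sample called 23. The DESeq2 fit also used a size factor for each table. It gave 423 members no adjusted p, and these count as not called. All 85 and all 23 were among the 674, as were 178 of the 180. With a TMM factor for each table instead of 1 library size per sample, 782 passed and 68.3% of them moved toward Cast, against 50.6% here, while the median log2 change over all members shifted by 0.081. No gene called under both scalings changed direction, and of the genes named below Syk, Irf8, Cenpa, Mcm3, Lipa, Manba, Ms4a1 and Ifngr2 missed the threshold with the TMM factors (adjusted p = 0.0709, 0.110, 0.0514, 0.123, 0.1, 0.109, 0.0709 and 0.0692). A set of 76 genes passed in edgeR with and without the replicate terms and in DESeq2, 42 toward Cast and 34 toward 129, and the text says below which named genes are among them.

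**Figure D1:**
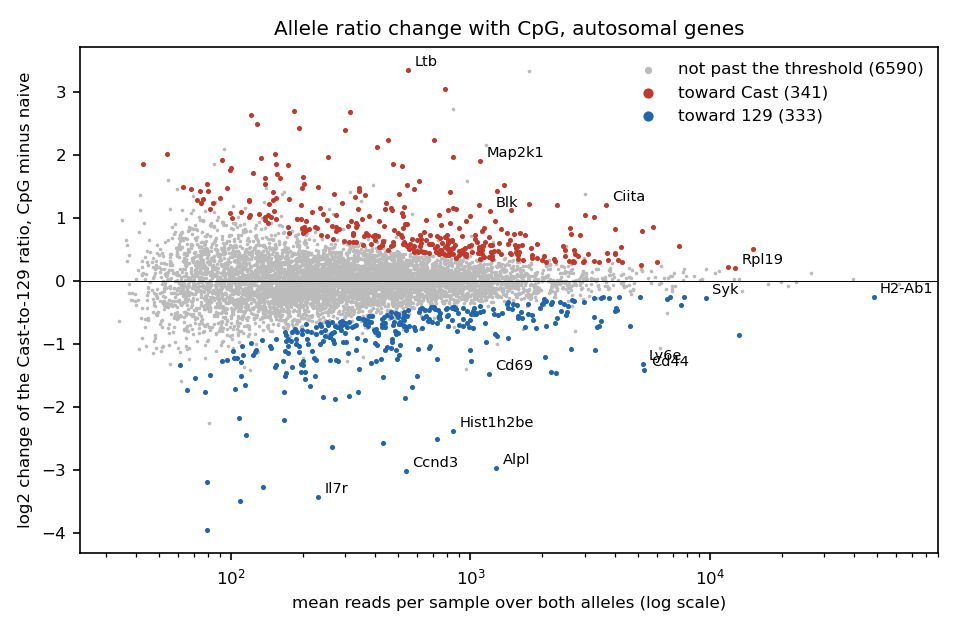
Log2 change of the Cast-to-129 ratio from naive to CpG (vertical axis) against the mean reads per sample over both alleles (horizontal axis, log scale), 1 point per member. Red points (341) moved toward Cast and blue points (333) toward 129 past the threshold, and smaller changes pass at higher read numbers.

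Reads set what could be called. Among members with 30 to 99 reads in their lowest sample 5.50% were called, among those with 1000 or more 25.4%, and the median standard error of the log2 change was 0.33 and 0.095. By response of the sum, the ratio was called for genes that rose with CpG (240 of 2600, 9.23%), fell (279 of 2577, 10.8%) or did not pass (155 of 2087, 7.43%). Summed counts changed for 71.3% of members, so most genes that responded to CpG showed no ratio change past the threshold. At the read minimum itself, 47 members had exactly 30 reads in their lowest sample. Just inside it, 0610040B10Rik had Cast shares of 42.7%, 47.8% and 48.4% in naive and 46.9%, 53.3% and 45.8% in CpG samples, and 9330175E14Rik had 56.3%, 53.6% and 56.7% against 42.5% to 58.8%. Just outside, 9130221H12Rik had 56.0%, 79.3% and 82.0% against 51.7%, 78.0% and 66.0%, and Acer3 had 66.7%, 69.0% and 75.6% against 51.9%, 41.4% and 76.9%.

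Summed over all members, the groups differed by less than the spread between samples. The Cast share of all member reads was 52.8% ± 0.784 in naive and 52.9% ± 0.816 in CpG samples (SD, n = 3 each, two-sided exact permutation p = 0.8, smallest possible 0.1). That test ignores the pairing by replicate number, and an exact sign-flip test of the pairs gave p = 0.5. The median Cast share over genes was 51.6% in naive and 51.5% in CpG samples and fell in all 3 pairs. Its sign-flip p was 0.25, the smallest that 3 pairs allow. The median distance of a gene's Cast share from 50% was 5.72 ± 0.301 and 5.73 ± 0.308 percentage points (SD, n = 3, exact permutation p = 1). Among the 674 called genes, the distance was larger in CpG samples for 366 and smaller for 308. In naive cells 219 of the called genes had all 3 shares within 10 points of 50%, beside 3291 of all 7264 members, and in CpG samples 225 did, beside 3376. The higher allele swapped in every sample for 114 of the 674 and for 221 of all members.

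The strongest shifts toward Cast were led by Ltb on chromosome 17, which encodes lymphotoxin beta, a membrane cytokine that B cells use to organise lymphoid tissue. Its naive samples held 397, 521 and 447 reads of the 129 allele and 425, 617 and 426 of the Cast allele. The CpG samples held 12, 10 and 17 reads of the 129 allele and 123, 122 and 176 of the Cast allele. The alleles were thus balanced at rest and most reads came from Cast after CpG: the Cast share went from 51.6% ± 2.71 to 91.6% ± 0.736 (SD, n = 3). The log2 change of the ratio was 3.35 (SE 0.22, adjusted p = 8.85e-14). Both alleles fell, the 129 allele by 5.49 and the Cast allele by 2.17 in log2 fold change.

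Map2k1 on chromosome 9, the MAP kinase kinase MEK1, split in the other manner. The 129 allele had 292, 347 and 243 reads in naive and 226, 312 and 255 in CpG samples, and the Cast allele had 347, 454 and 327 against 1165, 1270 and 1350. Only the Cast reads were far higher in every CpG sample than in any naive one. Its Cast share rose from 56.1% ± 1.61 to 82.7% ± 2.12 (SD, n = 3), a log2 ratio change of 1.90 (SE 0.12, adjusted p = 8.85e-14). With normalisation the Cast allele rose by 1.38 and the 129 allele fell by 0.51 (adjusted p = 0.0236).

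In other genes the sum of the alleles did not pass its own test. Rhbdf2 encodes iRhom2, which escorts the protease ADAM17 to the cell surface. Its Cast share was 54.0%, 55.6% and 45.6% in naive and 87.8%, 88.4% and 86.0% in CpG samples (log2 ratio change 2.69, SE 0.20, adjusted p = 2.75e-12), with a log2 change of the sum of -0.18 (adjusted p = 0.384). Foxj2, a forkhead transcription factor, went from 46.8%, 44.8% and 45.5% to 78.0%, 79.8% and 82.0% (2.24, SE 0.17), and its sum changed by -0.26 (adjusted p = 0.291). In Rhbdf2 and Foxj2 the 129 allele fell, by 2.12 and 1.70, and the groups lay far apart. Fbxo33, an F-box protein, moved from 43.9%, 51.9% and 45.6% to 75.3%, 77.9% and 74.6%, with a log2 ratio change of 1.83.

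Ppfibp2, which encodes liprin beta 2, rose on both alleles, by 0.99 on 129 and 3.21 on Cast, and its Cast share moved from 54.0% ± 3.84 to 84.2% ± 6.21 (SD, n = 3). Cep89, a centrosomal protein gene, started as a gene of the 129 allele, at Cast shares of 13.7%, 20.9% and 20.0%, and was balanced in CpG samples at 53.3%, 53.2% and 57.2% (log2 ratio change 2.43, SE 0.25). Jarid2, a cofactor of Polycomb repressive complexes, went from 60.6% ± 6.43 to 83.6% ± 6.86 (SD, n = 3), its 129 allele falling by 2.24. Samd11 and the phosphatase gene Ptp4a1 were almost all Cast in both groups. Samd11 had 3, 4 and 16 reads of the 129 allele in naive and 0, 3 and 5 in CpG samples, and without replicate 3 its adjusted p was 0.0622. Ptp4a1 had 36, 17 and 63 against 8, 13 and 26. Their changes of 3.05 and 1.96 rest on these few reads. Ltb, Rhbdf2, Cep89, Foxj2, Map2k1 and Fbxo33 are among the 76 genes called by each model. Without the replicate terms Ppfibp2 (adjusted p = 0.0799), Jarid2 (0.143), Ptp4a1 (0.203) and Samd11 (0.348) missed the threshold, and Samd11 also did in DESeq2 (0.0722).

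Toward 129, and setting aside genes whose lowest sample had under 100 reads, the largest shift was that of Ccnd3 on chromosome 17, cyclin D3, which drives the G1 phase of lymphocytes. The 129 allele had 345, 361 and 489 reads in naive and 168, 188 and 187 in CpG samples, and the Cast allele had 438, 369 and 591 against 20, 29 and 28. Its Cast share dropped from 53.7% ± 2.83 to 12.3% ± 1.49 (SD, n = 3), a log2 ratio change of -3.03 (SE 0.19, adjusted p = 8.85e-14). Both alleles were lower after CpG, at log2 fold changes of -4.57 for Cast and -1.53 for 129, so in Ccnd3 it was the 129 allele, and in Ltb the Cast allele, that fell less.

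Alpl on chromosome 4, tissue-nonspecific alkaline phosphatase, went from nearly 1 allele to both. Naive samples held 28, 9 and 13 reads of the 129 allele beside 237, 207 and 133 of the Cast allele. In CpG samples the 129 allele had 996, 777 and 1102 reads and the Cast allele 1418, 1200 and 1585. The Cast share went from 92.1% ± 3.32 to 59.5% ± 1.07 (SD, n = 3), with a log2 ratio change of -2.98 (SE 0.20, adjusted p = 1.05e-13). Both alleles rose, the 129 allele by 5.47 and the Cast allele by 2.51.

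Plxnd1, the semaphorin receptor plexin D1, had Cast shares of 70.9%, 63.4% and 62.0% in naive and 24.1%, 22.4% and 23.8% in CpG samples, so the higher allele swapped (-2.64, SE 0.21, adjusted p = 1.18e-11). Dnajb6, a co-chaperone, swapped as well, from 64.2% ± 2.74 to 33.5% ± 2.78 (SD, n = 3, log2 ratio change -1.83). Glipr1 went from 56.2% ± 7.70 to 26.0% ± 3.82, Epn1, an endocytic adaptor, from 41.3% ± 9.05 to 17.8% ± 8.37 and Ap3s1, a subunit of the AP-3 sorting complex, from 11.6% ± 2.84 to 3.43% ± 1.75 (SD, n = 3). Cdh17, a cadherin, rose on both alleles, by 4.24 on 129 and 1.74 on Cast, and its share fell from 75.8% ± 12.2 to 34.1% ± 1.60 (SD, n = 3).

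Among the histone genes, Hist1h2be held 147, 132 and 193 reads of the 129 allele in naive and 968, 2027 and 1023 in CpG samples, while the Cast allele held 67, 61 and 93 against 89, 183 and 87. Its Cast share fell from 31.8% ± 0.630 to 8.18% ± 0.304 (SD, n = 3, log2 ratio change -2.39). Hist3h2a went from 35.0%, 39.7% and 84.8% to 15.5%, 11.2% and 30.3%, with replicate 3 above the others in both groups. Histone genes have near-identical copies, and how such reads were counted is not stated, so these values are uncertain. Ccnd3, Alpl, Plxnd1, Hist1h2be, Glipr1 and Dnajb6 are among the 76. Without the replicate terms Epn1 (adjusted p = 0.220), Hist3h2a (0.460), Cdh17 (0.0941) and Ap3s1 (0.102) missed the threshold.

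**Figure D2:**
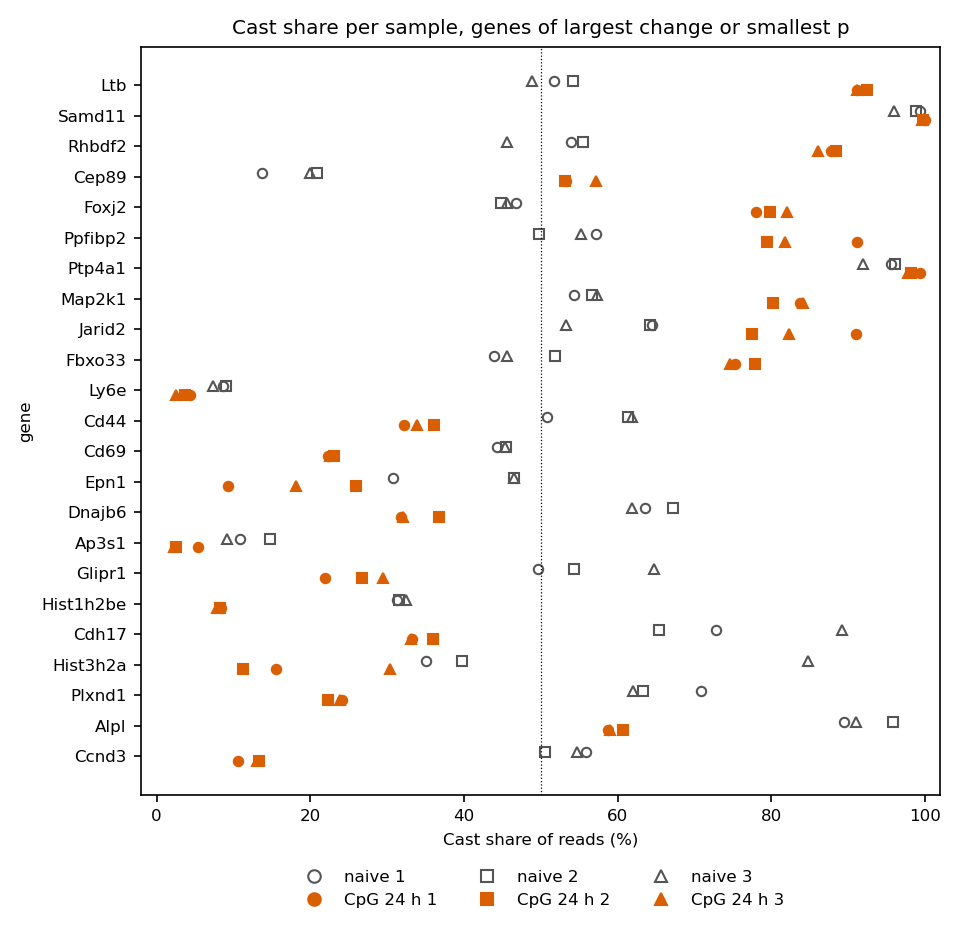
Cast share of reads (horizontal axis, %) of the genes with the largest changes or the smallest p, 1 row per gene, with open symbols for naive and filled symbols for CpG samples and 1 symbol shape per replicate number. Only genes whose groups do not overlap were chosen for the rows, such as Ltb (48.8% to 54.2% against 91.1% to 92.4%) and Ccnd3 (50.5% to 55.9% against 10.6% to 13.4%).

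Which allele carried a change was read from tests of each allele with the library size of the sum. Members changed on the 129 allele numbered 3928 (54.1%) and on the Cast allele 4499 (61.9%). Of the 674 called genes, 133 rose on both alleles (7.6% of the 1749 such members) and 173 fell on both (10.4% of 1667). The alleles of these genes then differed in extent. For 66 the 129 allele rose (23.7% of 279) and for 52 it fell (23.6% of 220) while the Cast allele did not pass. For 72 the Cast allele rose (14.6% of 493) and for 82 it fell (14.2% of 577) while the 129 allele did not pass. In 83 neither allele passed by itself (3.66% of 2266), and over all members 9.28% were called. These classes come from the same reads as the ratio test. The tests of each allele have no replicate term. With one, 4786 and 4891 members changed on the 129 and the Cast allele, so the classes of genes in which an allele did not pass rest on the fit without it.

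In 13 genes the alleles moved in opposite directions with each past its own test. All 13 were called, which was nearly fixed in advance because the allele tests and the ratio test use the same reads. Besides Map2k1, Cep89 and Fbxo33 the 13 included Trim35 and Pxn. In Trim35, a ubiquitin ligase gene, the 129 allele fell by 0.77 and the Cast allele rose by 0.40. In Pxn, which encodes the focal adhesion protein paxillin, the 129 allele rose by 0.82 and the Cast allele fell by 0.71. The Cast share of Pxn fell from 56.1% ± 4.19 to 30.6% ± 2.20 (SD, n = 3, log2 ratio change -1.53, SE 0.17). The sum of the Pxn alleles changed by 0.16 (adjusted p = 0.256), so the swap is not seen in its total. Trim35 rose from a share of 19.3% ± 0.931 to 35.5% ± 4.17 (SD, n = 3, log2 ratio change 1.20). Both genes are among the 76 called by each model.

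**Figure D3:**
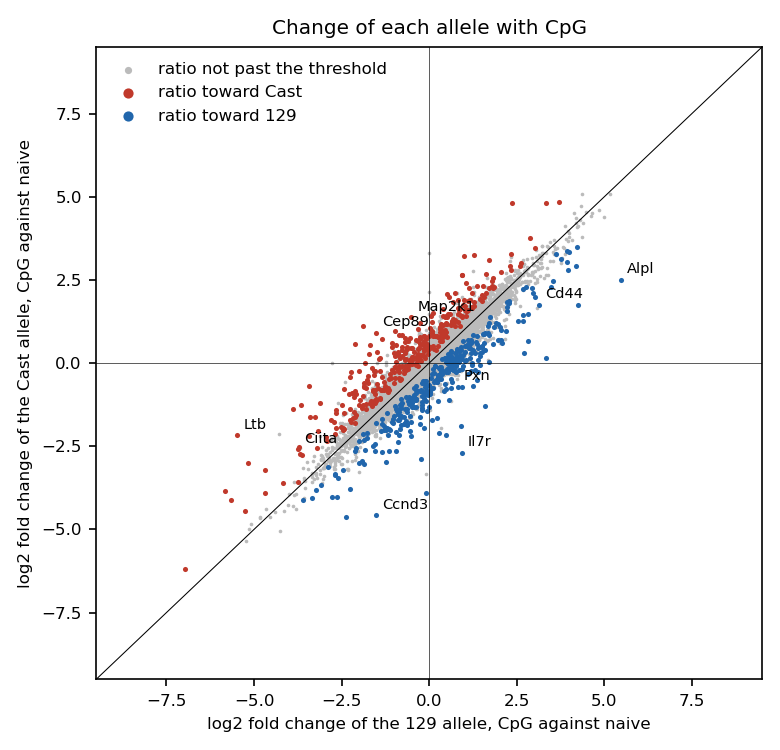
Log2 fold change from naive to CpG of the 129 allele (horizontal axis) against that of the Cast allele (vertical axis), 1 point per member. Points on the diagonal changed equally, red and blue points left it past the threshold of the ratio test, and Map2k1, Cep89 and Pxn lie in the quadrants of opposite change.

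Surface molecules of B cells had the highest share of calls among the lists with at least 9 members. Of 33 members of this list 17 passed (51.5%, beside 9.28% of all members), 9 toward Cast and 8 toward 129. The list is well expressed, with a median of 374 reads in the lowest sample against 174 over all members. Among genes with at least 300 reads, 12 of its 19 were called beside 14.2% of all 2217 such members. Its count was 4 without the replicate terms, 8 in DESeq2, 0 in limma (12 at an unadjusted p under 0.05) and 10 without replicate 1. The list was chosen with earlier results of these data known, and its median log2 change was -0.05, so it moved in no common direction.

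Cd44, the hyaluronan receptor of activated lymphocytes, rose on both alleles. The 129 allele went from 840, 428 and 394 reads to 6954, 4591 and 7096, and the Cast allele from 868, 678 and 641 to 3299, 2600 and 3635. The 129 allele thus rose more, by 3.13 against 1.76, and the Cast share fell from 58.0% ± 6.24 to 34.1% ± 2.00 (SD, n = 3, log2 ratio change -1.41, adjusted p = 1.05e-13). Cd69, an early activation marker that keeps lymphocytes in tissue, had Cast shares of 44.3%, 45.4% and 45.3% in naive and 22.3%, 23.1% and 22.6% in CpG samples (-1.48, SE 0.11, adjusted p = 2.26e-12). The 129 allele of Cd69 changed by -0.56 (adjusted p = 0.169) and the Cast allele fell by 2.04.

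Cd38, an ectoenzyme that consumes NAD, went from 28.7% ± 0.640 to 15.9% ± 1.33 (SD, n = 3, log2 ratio change -1.08). Ly6e, a small membrane-anchored protein of the Ly6 family, went from 8.36% ± 0.882 to 3.54% ± 0.937 (SD, n = 3, -1.33) and missed without the replicate terms (adjusted p = 0.0615). Cd44, Cd69 and Cd38 are among the 76. The other 13 called genes moved by at most 0.96 toward Cast (Il2ra) and 0.86 toward 129 in absolute log2 change. Toward Cast these included Cxcr4, Cd83, Slamf6, Tnfrsf13b, Cd53, Fcer2a, Il2ra and Fcgr2b. Fcer2a, which encodes CD23 itself, went from 61.7% ± 1.12 to 73.3% ± 9.36 (SD, n = 3), and missed the threshold without the replicate terms (adjusted p = 0.402), in DESeq2 (0.168) and without replicate 1 (0.486). Toward 129 these were Itgal, Cd24a, Cd93 and Ms4a1, of which Itgal, an integrin subunit, changed by -0.80 and missed without the replicate terms (0.108). Cd24a had Cast shares of 0.819% and 0.475%, too few Cast reads for a reading of its change, and Cxcr4 differed between replicates with an SD of 32.3 points in naive cells.

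**Figure D4:**
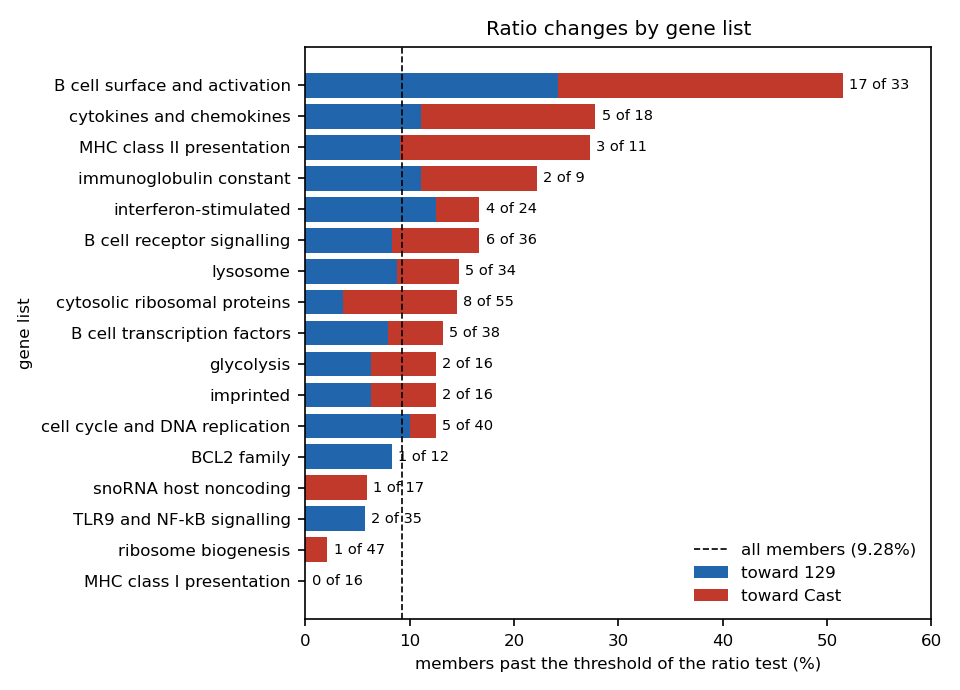
Share of the members of each gene list (rows, lists with at least 9 members) that passed the ratio test, split into shifts toward 129 (blue) and toward Cast (red), with called and tested members written beside each bar. The dashed line is the share over all members, 9.28%, which B cell surface genes (17 of 33) exceed and ribosome biogenesis (1 of 47) does not reach.

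In the list of TLR9 and NF-kB genes 2 of 35 members passed, both toward 129, which is 5.71% beside 9.28% of all members. Nfkbia encodes the inhibitor that holds NF-kB in the cytoplasm, and it went from 44.4% ± 2.99 to 37.8% ± 1.51 (SD, n = 3, log2 ratio change -0.39, adjusted p = 0.00286). Irak3, a kinase-like brake of the pathway, went from 60.4% ± 0.854 to 53.0% ± 1.81 (SD, n = 3, -0.44, adjusted p = 0.0116), and without replicate 1 it missed (0.0831). Neither passed without the replicate terms (0.184 and 0.109) or in DESeq2 (0.220 and 0.429).

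Among B cell receptor signalling genes 6 of 36 passed (16.7%, beside 9.28% of all members), 3 in each direction. This list has many reads, with a median of 926 in the lowest sample against 174 over all members, and was not compared at equal depth. Blk, a kinase of the Src family, fell on both alleles, at log2 fold changes of -2.80 on 129 and -1.70 on Cast, with shares of 51.8%, 55.6% and 52.8% in naive and 71.8%, 68.7% and 73.2% in CpG samples (1.11, SE 0.12, adjusted p = 2.17e-08). Malt1, the paracaspase that links the receptor to NF-kB, went from 40.9% ± 3.31 to 51.9% ± 1.48 (SD, n = 3). Itpr2, a calcium channel of the endoplasmic reticulum, fell from 59.9% ± 0.567 to 51.4% ± 1.89 and Syk, a kinase of the cascade, from 54.1% ± 1.26 to 49.4% ± 0.259 (SD, n = 3). The change of Syk, -0.27, is small and measured on at least 7014 reads per sample, and it missed without replicate 1 (adjusted p = 0.0933) and without replicate 3 (0.0506). Blk is among the 76. Malt1 (0.0741), Itpr2 (0.0511) and Syk (0.106) missed without the replicate terms, and Syk in DESeq2 (0.408).

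Antigen presentation was taken by class. Of 11 class II members 3 passed (27.3%, beside 9.28% of all members), and all 11 fell in summed counts. Ciita, the master activator of class II genes, had 3061, 3326 and 2497 reads of the 129 allele in naive and 227, 430 and 187 in CpG samples, and 3384, 4100 and 2718 against 581, 1013 and 582 of the Cast allele. Both alleles fell, and its Cast share moved from 53.3% ± 1.68 to 72.6% ± 2.81 (SD, n = 3, log2 ratio change 1.20, SE 0.098, adjusted p = 3.01e-11), which places it among the 76. H2-Ab1, a class II chain, moved the other way and little, from 47.9% ± 0.404 to 43.5% ± 1.65 (-0.26), and H2-Eb2 from 23.4% ± 1.41 to 34.9% ± 6.80 (SD, n = 3, 0.83). H2-Ab1 (0.1002) and H2-Eb2 (0.202) missed without the replicate terms, both missed in DESeq2 (0.390 and 0.266), and H2-Eb2 missed without replicate 2 (0.230).

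Of 16 class I members 0 passed in edgeR and 0 in DESeq2, beside 9.28% and 2.48% of all members. At an unadjusted p under 0.05 there were 4 and 1. Its members of most reads were B2m, the light chain of class I molecules, with Cast shares of 53.0% ± 4.48 in naive and 50.8% ± 1.95 in CpG samples, and the chaperone Canx, with 49.8% ± 0.622 and 49.3% ± 0.590 (SD, n = 3). The adjusted p of B2m was 0.553, and 0.0471 without replicate 2.

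Cytokines and their receptors had 5 of 18 called (27.8%, beside 9.28% of all members), with Ltb the largest. Il6st, the shared receptor chain gp130, fell from 70.9% ± 2.48 to 53.9% ± 3.33 (SD, n = 3, -1.06) and is among the 76. Il21r went from 59.2% ± 2.71 to 66.6% ± 1.80 and Il10ra from 56.6% ± 2.21 to 63.1% ± 2.78 (SD, n = 3). Il21r (0.143) and Il10ra (0.203) missed without the replicate terms and in DESeq2 (0.136 and 0.238), and Il10ra missed without replicate 1 (0.153) and replicate 3 (0.0531). Interferon-stimulated genes had 4 of 24 called (16.7%, beside 9.28% of all members). Irgm1, a GTPase of cell-autonomous immunity, went from 40.7% ± 4.84 to 24.3% ± 2.32 (log2 ratio change -1.10) and Gbp3, a guanylate-binding protein, from 62.6% ± 4.48 to 47.5% ± 4.19 (-0.90; SD, n = 3). Neither Irgm1 nor Gbp3 passed without the replicate terms (adjusted p = 0.0542 and 0.0920), while both passed in DESeq2 (0.00332 and 0.00167).

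Promoter letters are shown for 4 named genes of the cytokine, signalling and interferon lists, chosen because their windows hold a match. The windows of Il6st, Il21r, Irak3, Itpr2 and Syk and of another start of Gbp3 held none, which says only that these letters are not there. They come from RefSeq on GRCm38.p6, the C57BL/6J genome, which is neither allele, so they show no difference between 129 and Cast. The 250 bases before the start site were searched on both strands for the NF-kB motif, GGGA and TTCC with any 2 bases between, and the core of the interferon response element, GAAA and GAAA with any 2 bases between, whose matches can overlap. Capitals mark the matches, which begin at position -87 in Ltb, -29 in Nfkbia, -30 in Irgm1 and -45 in Gbp3, counted from the start site.
Ltb, chr17:35194257-35194506, plus strand: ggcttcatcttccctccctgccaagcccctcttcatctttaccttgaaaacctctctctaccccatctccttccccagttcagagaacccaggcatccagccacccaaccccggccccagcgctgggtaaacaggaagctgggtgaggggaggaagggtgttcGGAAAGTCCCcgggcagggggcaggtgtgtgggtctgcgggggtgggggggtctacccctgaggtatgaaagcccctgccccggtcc
Nfkbia, chr12:55492648-55492897, minus strand: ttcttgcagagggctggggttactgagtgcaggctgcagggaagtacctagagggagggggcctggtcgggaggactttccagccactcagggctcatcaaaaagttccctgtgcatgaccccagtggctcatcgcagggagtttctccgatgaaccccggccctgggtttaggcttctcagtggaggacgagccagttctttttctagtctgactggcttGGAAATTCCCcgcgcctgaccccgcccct
Irgm1, chr11:48871421-48871670, minus strand: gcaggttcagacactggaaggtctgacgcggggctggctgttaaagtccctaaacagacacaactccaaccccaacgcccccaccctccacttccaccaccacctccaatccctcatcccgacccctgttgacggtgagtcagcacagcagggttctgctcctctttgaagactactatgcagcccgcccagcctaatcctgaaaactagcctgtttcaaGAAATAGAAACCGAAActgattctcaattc
Gbp3, chr3:142559794-142560043, plus strand: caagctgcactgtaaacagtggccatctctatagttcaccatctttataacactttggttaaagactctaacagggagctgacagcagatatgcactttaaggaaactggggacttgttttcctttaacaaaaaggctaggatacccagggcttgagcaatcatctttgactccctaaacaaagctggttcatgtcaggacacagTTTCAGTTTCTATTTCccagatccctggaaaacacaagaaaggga

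Over all 32851 promoters in the table the NF-kB motif was held by 1.21% and the interferon core by 2.98%. By gene, 1.43% of the 5586 members with a promoter held the NF-kB motif, and 8 of 502 called genes (1.59%) did, Ltb, Nfkbia, Neurl3, Ifngr2, Mdfic, Eef2k, Lats2 and Vps8. The interferon core was in 2.95% of members and 2.59% of called genes. The E2F motif TTTCCCGC was in 2.31% and 1.20%, and the ETS-type motif GAGGAAGT in 3.13% and 4.38%. A match describes the letters of the window, not a bound site.

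Transcription factors of B cells had 5 of 38 called (13.2%, beside 9.28% of all members). Bhlhe40, a repressor induced in activated lymphocytes, had Cast shares of 57.0%, 57.2% and 59.7% in naive and 29.1%, 31.9% and 29.5% in CpG samples (-1.68, SE 0.23, adjusted p = 2.30e-06). Irf4, which plasma cell differentiation requires, went from 67.7% ± 0.554 to 76.4% ± 0.810 (SD, n = 3, 0.62, adjusted p = 1.82e-04). Both genes are among the 76, and their shares differed little within a group. Lmo2 went from 48.2% ± 2.48 to 56.2% ± 2.21 and Irf8 from 50.4% ± 0.315 to 45.9% ± 0.869 (SD, n = 3), and neither passed without the replicate terms (0.143 and 0.105) or in DESeq2 (0.200 and 0.489). Irf8 also missed without replicate 1 (0.0876) and replicate 3 (0.139).

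Cell cycle and replication genes had 5 of 40 called (12.5%, beside 9.28% of all members) while 32 of the 40 rose in summed counts. Mcm6, a helicase subunit, is outside the naming rule because its groups overlap, and is given after its values were seen. Its Cast shares were 66.8%, 63.4% and 97.9% in naive and 51.5%, 52.9% and 97.9% in CpG samples (-0.72), and it missed in DESeq2 (0.0889) and without the replicate terms. Rb1, the retinoblastoma protein, went from 39.5% ± 1.87 to 47.9% ± 4.28, Cenpa, the centromeric histone, from 61.2% ± 3.33 to 51.5% ± 4.87 and Mcm3, a subunit of the replicative helicase, from 56.7% ± 2.36 to 50.9% ± 1.02 (SD, n = 3). These 3 missed without the replicate terms (0.220, 0.257 and 0.179) and in DESeq2 (0.393, 0.484 and 0.533). Each also missed without replicate 2, at 0.294 (Rb1), 0.200 (Cenpa) and 0.291 (Mcm3), Cenpa without replicate 3 (0.104), and Mcm3 without replicate 1 (0.0702) and replicate 3 (0.0674).

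All 47 ribosome biogenesis members rose in summed counts and 1 of them, Rrp12, was called, which is 2.13%. Rrp12 missed without replicate 1 (0.0801) and replicate 2 (0.156), without the replicate terms (0.439) and in DESeq2 (0.400). Among cytosolic ribosomal protein genes 8 of 55 passed (14.5%), 6 of them toward Cast, with 31 of 55 higher in sum. This list has many reads, with a median of 1167 in the lowest sample against 174 over all members. Of all members with 1000 or more reads 25.4% were called, and the list was not compared at equal depth. None of the list passed without the replicate terms or in limma, and 1 passed in DESeq2. Its count was 3, 8 and 2 without replicate 1, 2 and 3, and 12 with the TMM factors. Rpl22l1 had the largest shift of the 4 described here, from 66.6% ± 5.16 to 80.3% ± 1.33 (SD, n = 3, 1.03). Rpl27a went from 77.1% ± 0.517 to 71.4% ± 0.436, Rps21 from 51.3% ± 0.700 to 56.5% ± 2.84 and Rpl19 from 43.4% ± 0.0870 to 47.0% ± 0.515 (SD, n = 3). These 4 missed without the replicate terms (0.0741, 0.0533, 0.235 and 0.117), and all but Rpl22l1 missed in DESeq2. Without replicate 1 or 3 Rps21 (0.101 and 0.148) and Rpl19 (0.205 and 0.143) missed. Ribosomal protein genes have many pseudogene copies, so their shares are uncertain.

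Snhg17 was the 1 called gene of 17 snoRNA hosts (5.88%, beside 9.28% of all members). Its Cast share went from 29.5% ± 2.20 to 39.7% ± 1.51 (SD, n = 3). In the glycolysis list 2 of 16 passed (12.5%, beside 9.28% of all members). Pdk1, which inhibits pyruvate dehydrogenase, went from 30.4% ± 1.63 to 40.8% ± 4.10 and Aldoc, an aldolase, from 91.4% ± 2.32 to 80.7% ± 8.81 (SD, n = 3). Pdk1 missed without replicate 2 (0.0752) and Aldoc without replicate 1 (0.348) and replicate 3 (0.0544), and Snhg17, Pdk1 and Aldoc missed without the replicate terms (0.0798, 0.122 and 0.275) and in DESeq2 (0.135, 0.102 and 0.242). In the BCL2 family 1 of 12 passed (8.33%), Bmf, toward 129 (0.468 without the replicate terms).

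Lysosomal genes had 5 of 34 called (14.7%, beside 9.28% of all members), and 28 of the 34 fell in sum. Ctsh, the protease cathepsin H, had 1527, 1725 and 1602 reads of the 129 allele in naive and 436, 637 and 669 in CpG samples, and 1383, 1612 and 1000 against 991, 1166 and 1036 of the Cast allele. The 129 allele fell more, at log2 fold changes of -1.85 against -0.68, and the Cast share went from 44.8% ± 5.49 to 65.0% ± 4.35 (SD, n = 3, 1.20, adjusted p = 9.66e-12; 0.0615 without the replicate terms). Scarb2, a lysosomal membrane protein, fell from 58.4% ± 3.24 to 46.0% ± 4.14, Lipa, the acid lipase, from 75.1% ± 1.98 to 70.0% ± 2.00 and Manba, a mannosidase, from 52.4% ± 1.63 to 45.1% ± 5.45 (SD, n = 3). They missed without the replicate terms (0.126, 0.235 and 0.380) and in DESeq2 (0.104, 0.497 and 0.646). Lipa also missed without each replicate number (0.0953 to 0.117) and Manba without replicate 3 (0.401).

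Markers of other cells were rarely members, since most lacked 30 reads in CpG samples. Of 3 macrophage markers among the members Mpeg1, a pore-forming protein of phagocytes, passed, going from 59.9% ± 4.21 to 70.9% ± 5.18 (SD, n = 3, 0.70, adjusted p = 0.0402), and it missed without replicate 1 (0.122), without replicate 3 (0.0919), without the replicate terms (0.209) and in DESeq2 (0.0685). Il7r was the T cell marker among the members, with 379, 36 and 473 Cast reads in naive and 67, 58 and 58 in CpG samples beside 42, 14 and 35 against 75, 52 and 100 of the 129 allele (-3.44, adjusted p = 0.00497; 0.0913 without the replicate terms). The summed T cell markers fell between the groups as given above, and their part in the change of Il7r was not tested.

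Of 9 immunoglobulin genes 2 passed (22.2%, beside 9.28% of all members), Igha and Jchain, which joins secreted antibody chains. Igha missed without replicate 2 (0.309), without replicate 3 (0.0960), without the replicate terms (0.884) and in DESeq2 (0.255). Jchain went from 52.1% ± 3.24 to 66.8% ± 2.06 (SD, n = 3, 0.91, adjusted p = 1.70e-04; 0.0511 without the replicate terms). Of 7 plasma cell markers 2 passed (28.6%), Jchain and Irf4. Of 16 members of a list of imprinted genes, which are expressed from 1 parent's allele in some tissues, 2 passed (12.5%). Herc3 went from 54.6% ± 3.35 to 66.5% ± 1.70 and Osbpl5 from 49.1% ± 5.92 to 32.3% ± 10.8 (SD, n = 3), so these 2 were read from both alleles here. They missed without the replicate terms (0.0958 and 0.344) and in DESeq2 (0.177 and 0.396), and Osbpl5 missed without replicate 3 (0.396).

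Called genes were spread over all 19 autosomes, from 6.10% of the members on chromosome 9 to 13.2% on chromosome 16. Among 6914 pairs of neighbouring members, 77 had both called (1.11%, beside 0.879% given by the square of the called share), and in 51 of the 77 both moved the same way. Runs of at least 3 called neighbours numbered 16. The longest was Irgm1, Ifi47, Zfp62 and Mgat1 on chromosome 11, all 4 toward 129.

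**Figure D5:**
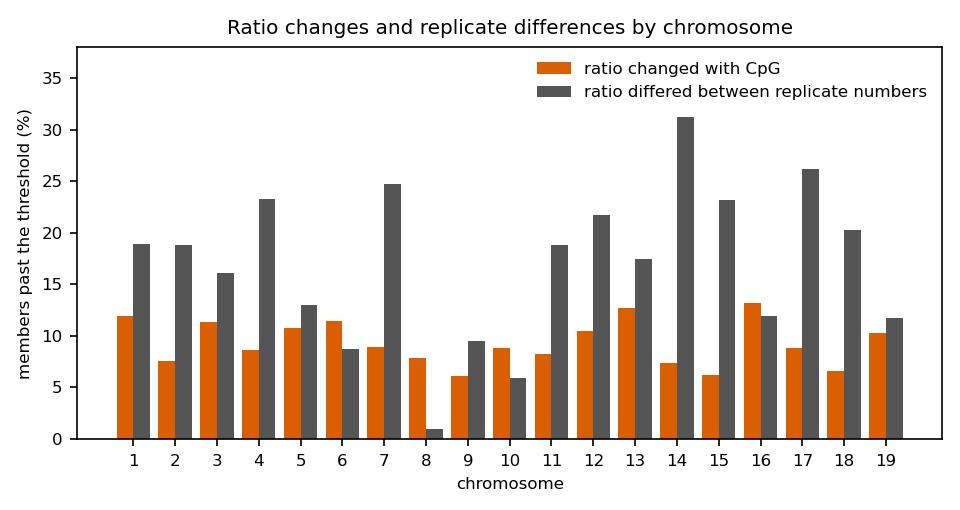
Percent of members on each autosome (horizontal axis) whose ratio changed with CpG (orange bars) and whose ratio differed between replicate numbers (grey bars). The orange bars run from 6.10% to 13.2%, while the grey bars run from 0.988% on chromosome 8 to 31.2% on chromosome 14.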

How the data were processed

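Total RNA libraries of 6 samples, made with a strand-specific kit per the labels, were analysed, 2 count tables each. The deposited counts are whole numbers per gene of the 129S1/SvImJ or CAST/EiJ annotation, as the authors' gene identifiers show, with no normalization. The submitters' processing notes name STAR, featureCounts, Subread 2.0.0 and mm10, while the tables end in rows of the htseq-count format. How a read was given to a strain is not stated, and its effect on shares and changes was not tested. Reads outside genes (44.5% to 67.1% of those aligned) were left out. The members and lists were chosen with earlier results of these data known.

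The ratio was tested in edgeR 4.0.16 (R 4.3.3) by the robust quasi-likelihood test, with 1 library size per sample, terms for sample, allele and allele by replicate number, and Benjamini-Hochberg adjustment at 0.05. An allele-by-stimulation term gave the log2 ratio change. The same-numbered correlations in the report give the pairing. Sums and single alleles were tested in edgeR with TMM factors of the sum and no replicate term. DESeq2 1.42.0 (a size factor for each table), limma 3.58.1 (pseudocount 1) and other filters were alternatives. The ratio test was tested on simulated data. Shares of 6 samples were compared by exact permutation and by an exact sign-flip test of the same-numbered pairs (scipy 1.17.1). No 2 libraries of the same group and strain agreed within sampling noise (chi-square per degree of freedom at least 7.11).

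Genes were named if called with separate groups: at 100 reads or more in all samples, the 10 strongest shifts to each side, the 10 lowest p and up to 5 each with opposing or swapped alleles, plus the 4 lowest p of each list. In a list with no call the 2 of most reads are given. Promoter sequences matched 5586 members by symbol. Some genes that met this rule are not reported here.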

Additional observations from a re-analysis of the deposited data

How the results depend on the processing

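The count of 674 genes with a ratio change became 85 with no replicate block, 180 in DESeq2 and 23 in limma on the log2 ratio. For these 3 moves the cause was not tested. The other alternatives gave 452 to 782, and leaving out each replicate number in turn gave 459 to 541, with 253 genes called in all 3 of these fits. In the fit with the replicate block the same-numbered samples are paired, and 42 of the 64 named calls were lost without it, 26 in DESeq2 and 51 in limma, all in the same direction. Among named genes with no call, the log2 change of B2m ran from -0.28 to 0.064 over the fits that leave out a replicate number. That of Canx ran from -0.065 to 0.0063 over those fits and was 0.052 with a TMM factor for each table. The counts of genes changed in sum (5177) and on each allele (3928 and 4499) and the sample-wide shares stayed within 1.5 times or within the spread under each alternative, the replicate block included. Depth limits precision: the median standard error of the log2 change was 0.33 with 30 to 99 reads in the lowest sample and 0.095 with 1000 or more.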
